A study of Homo sapiens with 12 samples.

Results

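Myeloma cells that carry the histone methyltransferase NSD2 with the substitution F1295A were compared with the same cells carrying wild-type NSD2. The comparison takes 3 libraries of each group, chosen by the vector in their labels, which is 6 of the 12 libraries in the study. All 12 were made from TKO, a derivative of the human multiple myeloma line KMS-11 with the genotype label WHSC1(+/-), WHSC1 being an older name of NSD2, and polyadenylated RNA was sequenced. The group called WT carried an expression vector for NSD2, F1295A a vector for NSD2 p.F1295A, D1240A a vector for NSD2 p.D1240A, and TKO no vector. The promoter of the vectors, and whether a line is a clone or a pool, are not stated in the sources used here. The substitution and any other difference between the lines that carry it therefore cannot be told apart, and p-values measure the spread between the 3 libraries labelled as biological replicates of each group. Values are FPKM (fragment numbers corrected for gene length and library total) after rescaling between libraries, changes are differences of log2(FPKM + 0.5), and "called" means an adjusted p (Benjamini-Hochberg, limma, over all tested genes) under 0.05. Throughout, "higher" and "lower" without a named group mean higher or lower in F1295A than in WT, and a signed number after a gene's name is its log2 change of F1295A from WT. Each of the 12 libraries was left out in turn, and where a call was lost without 1 of several libraries the highest adjusted p is given.

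NSD2 places methyl groups on lysine 36 of histone H3, a mark of active chromatin, through its SET domain. In KMS-11 the t(4;14) translocation drives the gene strongly, and high NSD2 spreads the mark over the genome at the expense of methylation at lysine 27. Downstream of the SET domain lies a C-terminal region with zinc-binding folds of the PHD type, which take part in protein and chromatin contacts, and both substituted positions of the study fall in that region.

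The 2 codons are shown because they define the groups, and each is given with 7 codons on either side. In the GENCODE 29 transcript ENST00000382891.9, whose reading frame has 1365 codons, the F1295A codon lies in exon 22 of 22, the last, at chr4:1978694-1978696, and the D1240A codon in exon 21 at chr4:1976571-1976573 (GRCh38, plus strand). The printed stretches span chr4:1978673-1978717 and chr4:1976550-1976594, and capitals mark the codon that is changed. The bases used in the vectors are not stated in the sources used here.
F1295A codon: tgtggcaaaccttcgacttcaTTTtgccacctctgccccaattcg
D1240A codon: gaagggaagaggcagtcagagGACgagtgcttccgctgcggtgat

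Between 11963 and 12297 genes reached 1 FPKM in a library, and read numbers are not stated in the sources used here, so depth is unknown. Ribosomal RNA made up 1.79% to 2.47% of the FPKM sum in the 6 WT and F1295A libraries, but 52.7% in D1240A replicate 2. Called counts of the main fit and single-gene changes against D1240A are therefore given with and without that library. Mean levels in D1240A, and list and window medians against it, include that library. The plasma cell label was met in part. XBP1, MZB1, JCHAIN, IRF4 and TNFRSF17, genes of plasma cell identity and antibody secretion, had mean levels of 429, 239.7, 3787, 125 and 162 FPKM in WT. The surface markers SDC1 and CD38 were near 0, at 0.235 and 0.349 FPKM in WT and 0.250 and 0.280 FPKM in F1295A. CD22 and TCL1A among B cell genes and CD3D, CD4 and NKG7 among T and NK cell genes were listed at 0 in all 6 libraries. Other genes of both lists were expressed. Of 21 T and NK cell genes, 2 averaged 1 FPKM or more in each group. They were CD7 (17.98 FPKM in WT and 17.52 in F1295A) and CD247 (2.01 and 1.24). Of 26 B cell genes 6 did, SPIB (20.7 and 21.8) and BCL11A (11.76 and 12.97) among them.

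NSD2 itself measured 189, 188 and 195 FPKM in WT and 172, 161 and 159 FPKM in F1295A. The groups did not overlap, and F1295A carried less NSD2 mRNA than WT (164 ± 6.56 against 190.5 ± 3.88 FPKM, SD, n = 3, log2 change -0.22, SE 0.039, adjusted p = 0.0138). That call was lost without WT replicate 1, WT replicate 3, F1295A replicate 2, F1295A replicate 3, each left out alone, with a highest adjusted p of 0.0664 without F1295A replicate 2. D1240A measured 242, 259 and 250.3 FPKM, the highest level of the 4 groups, and TKO 58.9, 58.6 and 62.7 FPKM, the lowest. Reads of the vector and of the chromosomal gene (ENSG00000109685, chr4:1871424-1982207) were not told apart, RNA does not measure the protein, and the part of the NSD2 level in the differences described next was not tested.

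Few genes were called between F1295A and WT, and most called changes were small. Of 14391 tested genes, 390 were called (2.71%), 129 higher (0.896%) and 261 lower (1.81%). Before adjustment, 2332 genes had a p under 0.05 (limma), so genes that were not called may still differ. The median log2 change was 0.32 among those called higher and -0.39 among those called lower, and 11 genes (0.0764%) were called and changed at least 2-fold. Over all tested genes the quartiles of the change were -0.08 and 0.08. The 3 libraries of one group lay beyond the 3 of the other for all 390 called genes, and for 3298 (22.9%) of all tested genes. Of the 390, 117 were called in each of 12 fits that left out 1 library, 46 higher and 71 lower, and no called gene changed sign in those fits. The share of calls that were higher moved with the settings. It was 33.1% after rescaling and 32.5% with median-ratio scaling. On the values as deposited it was 19.1%, with 17 called higher and 72 lower, and 24.3% when only WT and F1295A entered that fit, with 98 called higher and 306 lower, a setting chosen after seeing the data. With the scaling unchanged it was 24.3% with only these groups and no variance trend, and 41.2% and 42.4% without WT replicate 1 and WT replicate 2.

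**Figure D1:**
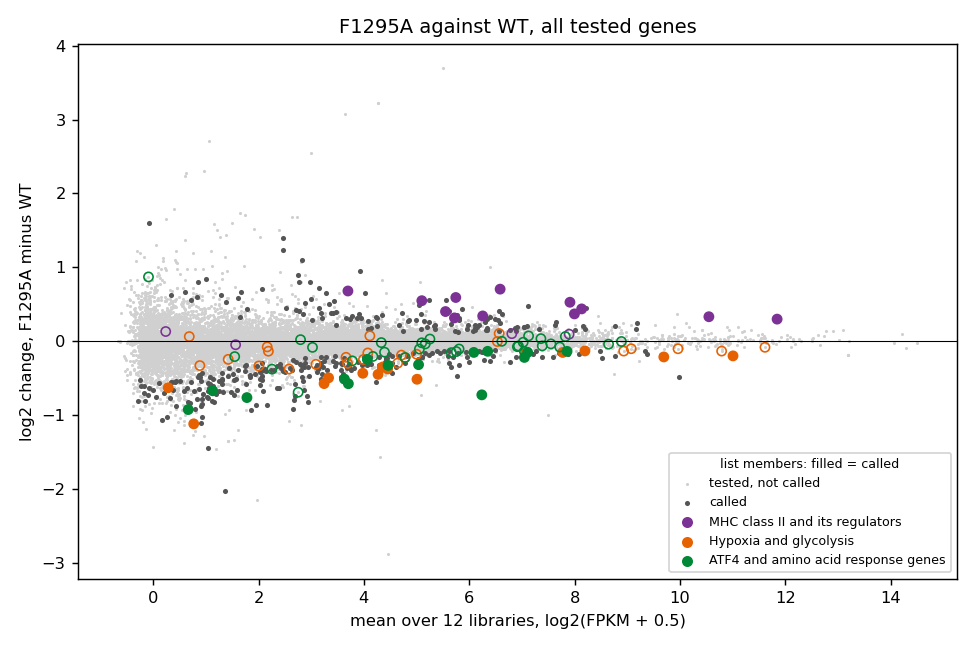
Log2 change of F1295A from WT (vertical axis) against the mean level over 12 libraries (horizontal axis, log2 scale) for 14391 tested genes, with called genes as dark points and 3 gene lists in color, filled where called. The 12 called class II members lie above 0, the called hypoxia and ATF4 members lie below, and most called changes are under 2-fold.

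The 12 largest called increases among genes averaging 2 FPKM or more included LAMP5, a lysosome-associated membrane protein (ENSG00000125869, chr20:9514358-9530524). It measured 3.42, 3.61 and 2.96 FPKM in WT and 6.89, 8.13 and 7.97 FPKM in F1295A (log2 change 1.09, SE 0.082, adjusted p = 7.14e-05), so the lowest F1295A library was well above the highest WT library. Its level in D1240A lay above that in F1295A (log2 change -0.37, adjusted p = 0.0269), a difference no longer called without D1240A replicate 2 (-0.32, adjusted p = 0.0915). TNFRSF18, a costimulatory receptor of T cells also known as GITR (chr1:1203508-1206691), measured 3.57, 3.37 and 4.52 FPKM in WT and 7.07, 7.83 and 8.47 FPKM in F1295A (log2 change 0.95, SE 0.10, adjusted p = 0.000825), against means of 11.7 FPKM in D1240A and 35.4 in TKO. COL6A1, a collagen VI chain, rose from 2.77 ± 0.248 to 4.91 ± 0.575 FPKM (log2 change 0.72, SE 0.078, adjusted p = 0.000825). SOCS1, a feedback inhibitor of JAK-STAT signaling, rose from 7.11 ± 1.03 to 11.5 ± 0.779 FPKM (log2 change 0.66, SE 0.086, adjusted p = 0.00249). The lymphotoxin gene LTB, the inflammatory protease gene CASP1 and the myeloma-linked gene MYEOV rose with log2 changes of 0.70, 0.65 and 0.67, and each of the 3 calls was lost in at least 1 fit with a library left out (highest adjusted p: LTB 0.127 without WT replicate 3, CASP1 0.0734 without F1295A replicate 2, MYEOV 0.131 without WT replicate 1). MTRNR2L12, at 0.59 (adjusted p = 0.0483, or 0.174 without F1295A replicate 2), resembles the mitochondrial ribosomal RNA gene in sequence, so its reads are uncertain. HLA-DQB2, HLA-DQA1, HLA-DOA and HLA-DQB1 complete the 12 and belong with the class II genes described further on.

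GPR171, a G protein-coupled receptor of lymphocytes (chr3:151197832-151203201), showed the largest decrease of the named genes. It measured 5.30, 5.53 and 2.81 FPKM in WT and 0.289, 1.69 and 0.498 FPKM in F1295A (log2 change -2.02, SE 0.42, adjusted p = 0.0265), with a wide spread inside both groups, and the call was lost without WT replicate 1, WT replicate 2, F1295A replicate 1, F1295A replicate 3, each left out alone, with a highest adjusted p of 0.109 without WT replicate 1. The AP-1 repressor JDP2 fell from 6.45 ± 0.750 to 3.13 ± 0.278 FPKM (log2 change -0.93, SE 0.13, adjusted p = 0.00342). CLGN, a chaperone of the endoplasmic reticulum, measured 10.8, 11.1 and 10.3 FPKM in WT and 5.63, 6.22 and 5.95 FPKM in F1295A (log2 change -0.80, SE 0.061, adjusted p = 7.14e-05), and the 2 groups stood far apart relative to their spread. Others that fell were the katanin-like gene KATNAL2 (-0.92), the activin subunit gene INHBE (-0.87), the actin-associated RAI14 (-0.87) and TMSB15A (-0.83), the carboxypeptidase gene CPVL (-0.74), and the transcription factors ATF3 (-0.76) and JUN (-0.73). Of these the calls of INHBE, RAI14 and ATF3 did not hold in every fit with a library left out (highest adjusted p: INHBE 0.0948 without WT replicate 1, RAI14 0.0583 without F1295A replicate 3, ATF3 0.107 without F1295A replicate 2). PCED1B-AS1 (-0.74) is antisense to another gene, and since the strand setting is not stated in the sources its reads cannot be told apart from that gene's.

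**Figure D2:**
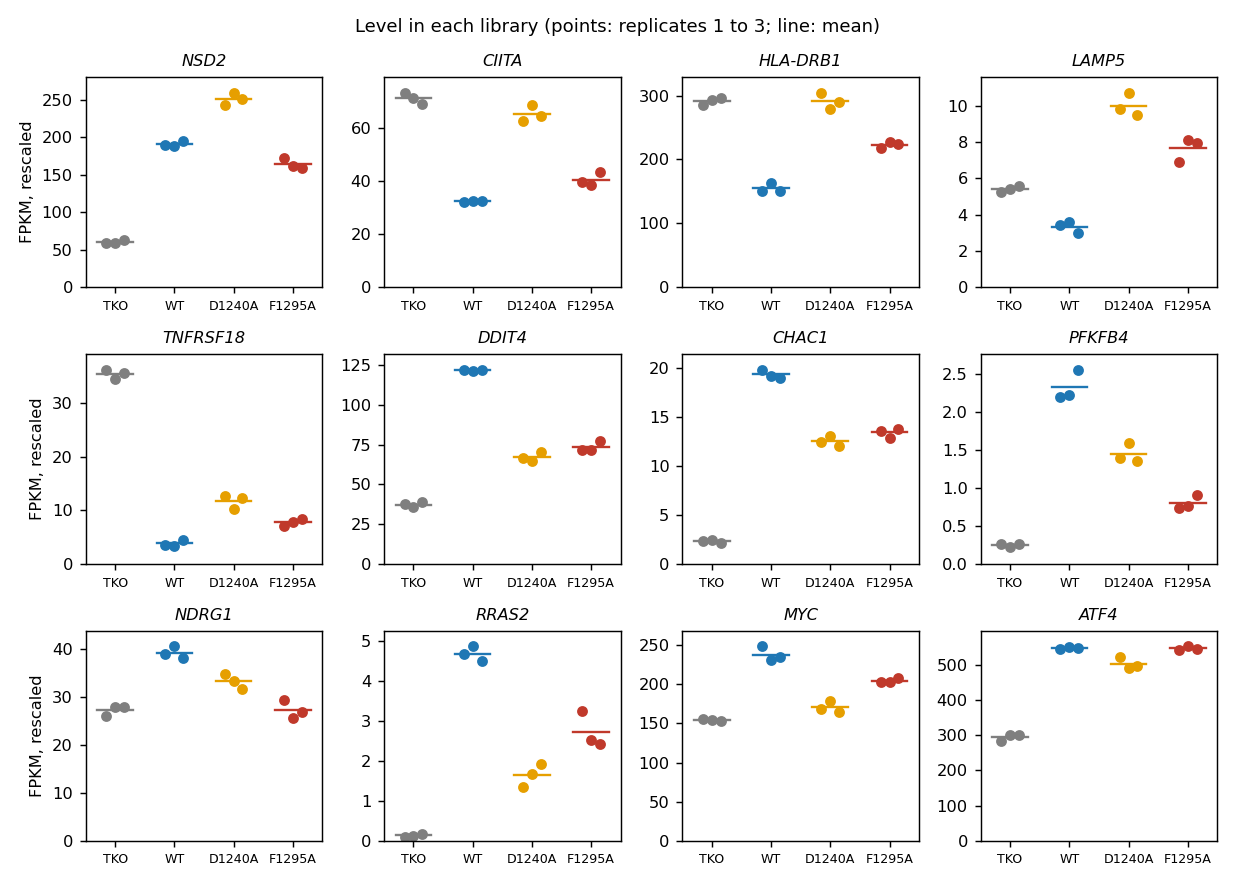
FPKM after rescaling (vertical axes, from 0) of 12 genes in each library of the 4 groups, with points for replicates 1 to 3 and a line at the mean. CIITA, HLA-DRB1, LAMP5 and TNFRSF18 are higher in F1295A than in WT, DDIT4, CHAC1, PFKFB4, NDRG1, RRAS2 and MYC are lower, and ATF4 stands at the same height in both.

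MHC class II genes rose together. These genes encode the paired alpha and beta chains that present peptides to CD4 T cells, the invariant chain CD74 that guards them, the loading factors HLA-DM and HLA-DO, and CIITA, the coactivator that switches the set on together with the RFX complex. The gene lists counted here and below were chosen with earlier results of these data known, so their shares describe them and are not independent support. Of 16 tested members 12 rose and 0 fell (75%), against 0.896% of all tested genes called higher, with a list median of 0.36 against -0.00 over all genes. The 4 that were not called were HLA-DOB, at 0.566, 0.415 and 1.04 FPKM in WT and 0.868, 0.903 and 0.528 FPKM in F1295A, and the RFX subunits RFX5 (0.09, adjusted p = 0.291), RFXANK (0.10, adjusted p = 0.567) and RFXAP (-0.05, adjusted p = 0.873). All 12 calls held in each of the 12 fits that left out a library, and on the values as deposited 4 members were called, or 12 when only WT and F1295A entered that fit.

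CIITA (ENSG00000179583, chr16:10866222-10943021) measured 31.9, 32.5 and 32.4 FPKM in WT and 39.5, 38.3 and 43.3 FPKM in F1295A (log2 change 0.32, SE 0.047, adjusted p = 0.00551). CD74 (chr5:150401637-150412929), the most abundant member, measured 2676, 2577 and 2623 FPKM in WT and 3201, 3189 and 3299 FPKM in F1295A (log2 change 0.30, SE 0.032, adjusted p = 0.000825). HLA-DRA, the nearly invariant alpha chain of HLA-DR, measured 1103, 1132 and 1089 FPKM in WT and 1375, 1418 and 1389 FPKM in F1295A (log2 change 0.33, SE 0.039, adjusted p = 0.00147). In all 3 genes the replicates of a group lay close together and the groups were clearly apart. HLA-DRB1, the partner of HLA-DRA (chr6:32578769-32589848), measured 150.0, 164 and 151 FPKM in WT and 218, 228 and 224 FPKM in F1295A (log2 change 0.53, SE 0.041, adjusted p = 7.3e-05), the smallest p of the list. HLA-DQA1 (chr6:32628179-32647062) measured 57.8, 58.8 and 52.3 FPKM in WT and 92.5, 94.3 and 89.1 FPKM in F1295A (log2 change 0.70, SE 0.077, adjusted p = 0.000825), the largest change of the list. On the log2 scale the beta chain HLA-DQB1 rose by 0.59 and HLA-DRB5 by 0.55. HLA-DPA1 and HLA-DPB1, annotated on opposite strands with overlapping spans, rose by 0.37 and 0.44. The loading factors HLA-DMA, HLA-DMB and HLA-DOA rose by 0.34, 0.40 and 0.68. The chains of the DR, DQ and DP families are close in sequence, so how reads were split among them, HLA-DQB2 (0.80, adjusted p = 0.0207, or 0.0948 without WT replicate 1) included, is uncertain.

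F1295A lay above WT and below D1240A at most class II members. CIITA averaged 32.3 FPKM in WT, 40.3 in F1295A, 65.1 in D1240A and 71.0 in TKO. For HLA-DRB1 the corresponding means were 155, 223, 291 and 292 FPKM. In F1295A against D1240A, where 877 genes were called (6.09%), 445 higher (3.09%) and 432 lower (3%), 13 of the 16 members were lower in F1295A and 0 higher, with a median of -0.35. Without D1240A replicate 2 the counts were 173 higher and 212 lower over all genes, and 12 members were lower and 0 higher. No empty-vector line was analysed here, and comparisons with TKO therefore also set cells with a vector beside cells without one. Against TKO, 12 members were lower and 1 higher in WT, with a median of -0.75, where 23.9% of all tested genes were lower, and 12 were lower and 2 higher in F1295A, with a median of -0.37, where 21.8% of all tested genes were lower. CIITA fell short of D1240A by 0.68 on the log2 scale (adjusted p = 3.57e-05, or log2 -0.65 and adjusted p = 0.000183 without that library), and HLA-DRB1 had a log2 change of -0.38 (adjusted p = 0.000459, or -0.41 and adjusted p = 0.000875). HLA-DOA, which was not called between WT and TKO (nor were HLA-DOB and RFXAP), had means of 8.68 FPKM in TKO, 7.99 in WT, 20.1 in D1240A and 13.1 in F1295A. In bulk RNA, more cells that express a gene and more RNA per cell cannot be told apart. B cells and myeloid cells also express class II genes, so their markers are given beside the result. The 26 B cell genes summed to 91.3 to 97.5 FPKM in WT and 106 to 113 in F1295A, CIITA and CD37 (19.6 and 24.8 FPKM) among them, with 6 of 26 at a mean of 1 FPKM or more in each group. The 16 myeloid markers summed to 22.6 to 28.5 FPKM in WT and 30.9 to 34.7 in F1295A, with CLEC7A (0.37, adjusted p = 0.0241, or 0.0997 without F1295A replicate 2) the only one at 1 FPKM or more and S100A8, S100A9 and CSF3R at 0 in both, and the part of these cells in the result was not tested.

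Of 19 tested genes of MHC class I presentation, which shows peptides from inside the cell to CD8 T cells, 2 rose and 0 fell, with a median of 0.08. Among all tested genes 0.896% were called higher and 1.81% lower. HLA-B measured 365, 378 and 369 FPKM in WT and 426, 426 and 425 FPKM in F1295A (log2 change 0.20, SE 0.030, adjusted p = 0.00546). HLA-E, a ligand of NK cell receptors, rose from 104 ± 1.71 to 119.5 ± 2.49 FPKM (log2 change 0.20, SE 0.027, adjusted p = 0.00297). Both calls held with each library left out. On the values as deposited 0 members of the list were called, or 2 higher when only WT and F1295A entered that fit. Interferon-stimulated genes, which often accompany class I, had 0 called higher and 1 lower among 33 tested, HERC5 (-0.23, adjusted p = 0.0407, or 0.132 without F1295A replicate 2). That share, 3.03%, lies near the 2.71% of all tested genes called in either direction.

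The promoters of 3 class II genes are shown because these genes rose together and their promoters share a Y box, the CCAAT-type element bound by the factor NF-Y next to the RFX site. The sequences are RefSeq promoters (GRCh38.p14), of which the 250 bases before the gene's start were searched, and 14 of the 16 tested members matched an entry (not HLA-DRA and CIITA). Capitals mark CCAAT or, for the other strand, ATTGG, and the part printed is the longest outside every GENCODE 29 exon. Shown are HLA-DRB1 (chr6:32589849-32590098, minus strand), HLA-DQA1 (chr6:32637156-32637356, plus strand) and CD74 (chr5:150412930-150413160, minus strand).
HLA-DRB1: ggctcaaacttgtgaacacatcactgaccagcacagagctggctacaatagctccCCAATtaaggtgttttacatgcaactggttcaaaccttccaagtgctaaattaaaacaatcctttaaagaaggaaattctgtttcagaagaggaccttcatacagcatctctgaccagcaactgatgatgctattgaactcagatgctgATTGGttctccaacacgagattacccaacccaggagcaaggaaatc
HLA-DQA1: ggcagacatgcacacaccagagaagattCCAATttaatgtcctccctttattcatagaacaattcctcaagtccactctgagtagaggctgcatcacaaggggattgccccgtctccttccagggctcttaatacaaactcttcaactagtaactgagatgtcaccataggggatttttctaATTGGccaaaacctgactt
CD74: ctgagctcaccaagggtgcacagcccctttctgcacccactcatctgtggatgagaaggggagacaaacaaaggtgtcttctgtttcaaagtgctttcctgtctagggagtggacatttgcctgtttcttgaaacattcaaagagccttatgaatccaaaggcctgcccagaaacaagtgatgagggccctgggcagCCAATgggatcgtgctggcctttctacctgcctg
These 5 letters occurred in 11 of the 14 promoters, in 9 of the 10 called members with an entry, in 33.0% of all 27305 promoters of that length and in 35.6% of the 10025 that belong to tested genes. A match describes the letters only, and HLA-DRB1 and HLA-DQA1 had 2 matches each and CD74 had 1.

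Many hypoxia and glycolysis genes were lower in F1295A. A large part of them are targets of the hypoxia-inducible factors, which shift cells toward glycolysis and remodel collagen when oxygen is short. Of 38 tested members 14 fell and 0 rose (36.8%), against 1.81% of all tested genes called lower, with a median of -0.22, and 35 of the 38 had values below 0. The count lay between 8 and 16 when single libraries were left out, lowest without WT replicate 1, and was 4 on the values as deposited and 19 when those were fitted with only WT and F1295A. HIF1A, the oxygen-regulated subunit gene itself, measured 15.7, 16.1 and 16.7 FPKM in WT and 16.8, 16.7 and 17.6 FPKM in F1295A (log2 change 0.07, adjusted p = 0.584), a difference that did not pass the test.

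PFKFB4, an enzyme that sets the level of a glycolysis activator (chr3:48517684-48562015), measured 2.20, 2.23 and 2.56 FPKM in WT and 0.738, 0.763 and 0.907 FPKM in F1295A (log2 change -1.12, SE 0.11, adjusted p = 0.000375). P4HA1 (chr10:73007217-73096974), a collagen prolyl hydroxylase subunit, measured 11.7, 12.9 and 12.3 FPKM in WT and 7.96, 8.32 and 7.96 FPKM in F1295A (log2 change -0.57, SE 0.050, adjusted p = 0.000199). NDRG1, a stress gene induced by low oxygen, measured 38.8, 40.4 and 38.0 FPKM in WT and 29.2, 25.6 and 26.8 FPKM in F1295A (log2 change -0.52, SE 0.053, adjusted p = 0.000661). None of these 3 genes had overlapping groups, and each call held with every library left out. Hexokinase HK2 fell from 25.2 ± 0.0918 to 19.7 ± 1.09 FPKM (log2 change -0.35, SE 0.043, adjusted p = 0.00166), and PDK1, which holds pyruvate back from the mitochondria, from 20.2 ± 1.48 to 14.8 ± 0.518 FPKM (log2 change -0.43, SE 0.054, adjusted p = 0.00174). The histone demethylase KDM3A (-0.38), the aldolase ALDOC (-0.45) and the lactate dehydrogenase LDHA (-0.21) fell as well, and held with every library left out. P4HA2 (-0.63), the mitophagy gene BNIP3 (-0.50) and the glycolytic enzymes ALDOA (-0.20), PFKP (-0.15), GPI (-0.15) and PGAM1 (-0.13) fell, but lost the call in at least 1 such fit (highest adjusted p: P4HA2 0.107 without WT replicate 1, BNIP3 0.0737 without WT replicate 3, ALDOA 0.0618 without WT replicate 1, PFKP 0.085 without WT replicate 1, GPI 0.0835 without WT replicate 1, PGAM1 0.147 without WT replicate 1). Other enzymes of the same pathway were not called, among them GAPDH (-0.08, adjusted p = 0.309), PKM (-0.10, adjusted p = 0.212) and TPI1 (-0.10, adjusted p = 0.211). The glucose transporter SLC2A1 (-0.30, adjusted p = 0.102) and the growth factor VEGFA (-0.22, adjusted p = 0.204) had values below 0 that did not pass the test.

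In F1295A against D1240A, 4 of 38 were called lower in F1295A and 0 higher, where 3% and 3.09% of all tested genes were, and the median was -0.03 (3 lower and 0 higher without D1240A replicate 2). PFKFB4 averaged 1.44 FPKM in D1240A, with a log2 change of -0.58 of F1295A from it (adjusted p = 0.0113, or -0.53 and adjusted p = 0.0428 without D1240A replicate 2). NDRG1 averaged 33.2 FPKM there (-0.28, adjusted p = 0.0126, or -0.28 and adjusted p = 0.0391). Against TKO, with which WT and F1295A were each compared, the list's median was 0.36 in WT and 0.08 in F1295A, and 29 members were called higher in WT, where 25.8% of all tested genes were, and 17 in F1295A, where 23.9% were. NDRG1 averaged 27.2 FPKM in TKO, 39.1 in WT and 27.2 in F1295A, and its replicates in F1295A and TKO overlapped.

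Promoter stretches of BNIP3 and LDHA are shown because both genes fell and both hold ACGTG, the core of the element that hypoxia-inducible factors bind (CACGT on the other strand). They are RefSeq promoters treated as above, BNIP3 (chr10:131982014-131982173, minus strand) and LDHA (chr11:18394313-18394387, plus strand), with the core in capitals.
BNIP3: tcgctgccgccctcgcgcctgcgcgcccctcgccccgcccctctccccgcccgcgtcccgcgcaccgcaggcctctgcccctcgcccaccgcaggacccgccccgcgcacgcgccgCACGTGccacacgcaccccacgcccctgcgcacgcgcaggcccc
LDHA: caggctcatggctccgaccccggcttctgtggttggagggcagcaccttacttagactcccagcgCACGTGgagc
Of 34 tested members with an entry 16 held the core, as did 7 of 13 called members with one. It occurred in 18.7% of all 27305 promoters and in 24.0% of those of tested genes. Each printed stretch has 2 matches, counting both strands, and matches that overlap merge in the capitals.

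Genes of the ATF4 and amino acid response fell in part, while ATF4 mRNA itself was not called. ATF4 is a transcription factor made when protein synthesis is restrained by amino acid shortage or stress, and it turns on amino acid transporters, synthetic enzymes and further stress regulators. It measured 545, 551 and 547 FPKM in WT and 543, 552 and 544 FPKM in F1295A (log2 change -0.004, adjusted p = 0.97). Of 45 tested members of the list 14 fell and 0 rose (31.1%), against 1.81% of all tested genes called lower, with a median of -0.14, and 39 had values below 0. The count ranged from 7, without WT replicate 1 or without F1295A replicate 2, to 16 when single libraries were left out, and was 5 on the values as deposited, or 18 on those with only WT and F1295A in the fit.

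DDIT4, an inhibitor of mTOR (chr10:72273920-72276036), had the smallest adjusted p of all named genes. It measured 122, 121 and 122 FPKM in WT and 71.4, 71.7 and 77.2 FPKM in F1295A (log2 change -0.73, SE 0.041, adjusted p = 2.15e-05), a decrease far larger than the spread in either group. CHAC1, which breaks down glutathione (chr15:40952962-40956519), measured 19.8, 19.2 and 19.0 FPKM in WT and 13.5, 12.8 and 13.8 FPKM in F1295A (log2 change -0.51, SE 0.055, adjusted p = 0.000825). SESN2, a sensor of leucine upstream of mTOR, measured 22.2, 20.7 and 20.6 FPKM in WT and 13.7, 13.8 and 14.5 FPKM in F1295A (log2 change -0.58, SE 0.059, adjusted p = 0.000661). VLDLR, a lipoprotein receptor, went from 2.37 ± 0.146 to 1.01 ± 0.0887 FPKM (log2 change -0.93, SE 0.11, adjusted p = 0.0013). Among regulators, CEBPB (-0.33) and DDIT3 (-0.32) fell and held with each library left out, as did the transporter SLC7A5 (-0.22). ATF3, TRIB3 (-0.25), CTH (-0.67), ASNS (-0.15), SLC3A2 (-0.15), MTHFD2 (-0.14) and TARS (-0.14) fell but lost the call in at least 1 such fit (highest adjusted p besides ATF3: TRIB3 0.0588 without WT replicate 1, CTH 0.104 without WT replicate 3, ASNS 0.109 without WT replicate 1, SLC3A2 0.0948 without WT replicate 1, MTHFD2 0.08 without WT replicate 2, TARS 0.143 without WT replicate 1). Most aminoacyl-tRNA synthetases were not called, with values from -0.11 for CARS to 0.07 for YARS, and neither were the serine enzymes PHGDH (-0.14, adjusted p = 0.255), PSAT1 (0.02, adjusted p = 0.939) and PSPH (-0.11, adjusted p = 0.284).

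CHAC1 averaged 2.30 FPKM in TKO, 19.3 in WT, 12.5 in D1240A and 13.4 in F1295A. The list's median against TKO was 0.89 in WT and 0.85 in F1295A, with 42 and 43 of 45 members called higher than in TKO, where 25.8% and 23.9% of all tested genes were, comparisons that share the TKO libraries. Against D1240A, 12 members were called higher in F1295A and 1 lower, where 3.09% and 3% of all tested genes were, or 10 and 1 without D1240A replicate 2, where 173 and 212 of all genes were called. SESN2 was higher than in D1240A by 0.38 (adjusted p = 0.00462, or 0.38 and adjusted p = 0.0182 without that library), and CEBPB by 0.30 (adjusted p = 0.00462, or 0.33 and adjusted p = 0.0101). DDIT4 averaged 67.3 FPKM in D1240A, and F1295A did not pass the test against it (log2 change 0.12, adjusted p = 0.105, or 0.10 and adjusted p = 0.277 without D1240A replicate 2).

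**Figure D3:**
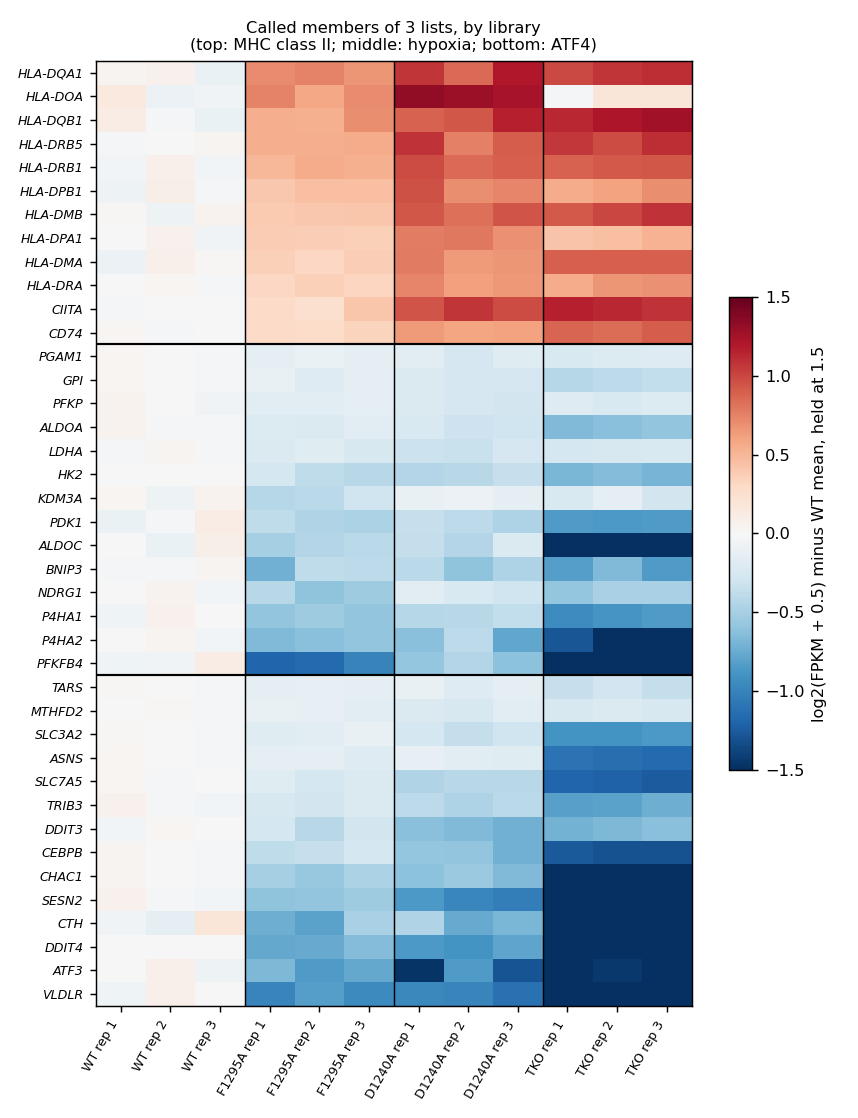
Difference of log2(FPKM + 0.5) from the WT mean (color, held at 1.5 either way) for the 12 called class II members (top), the 14 called hypoxia and glycolysis members (middle) and the 14 called ATF4 members (bottom), by library in columns. The 3 F1295A columns are alike in each block, red at the top and blue below, and the D1240A and TKO columns show the same color for most genes.

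The promoter of ATF3, which fell, is shown because it holds a letter match to the response element of ATF4 and C/EBP factors. The element was searched as TGATGNAA and, on the other strand, TTNCATCA, and a match describes the letters only. It is a RefSeq promoter treated as above, ATF3 (chr1:212565157-212565333, plus strand), with the match in capitals.
ATF3: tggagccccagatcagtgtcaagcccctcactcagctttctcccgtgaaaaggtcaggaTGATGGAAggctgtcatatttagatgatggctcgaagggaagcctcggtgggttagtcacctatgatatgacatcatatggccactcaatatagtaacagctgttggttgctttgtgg
A match occurred in 6 of the 37 tested members with an entry, in 3 of the 14 called members (ATF3, CHAC1 and ASNS), all with an entry, in 3.19% of all 27305 promoters and in 1.29% of the 10025 of tested genes.

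Of 25 tested plasma cell regulators and secretion genes 9 fell and 0 rose (36%), against 1.81% of all tested genes called lower, with a median of -0.06. The count went down to 3 without WT replicate 1 or F1295A replicate 3, and was 1 on the values as deposited and 8 on those with only WT and F1295A in the fit. Against D1240A, 9 of the 25 were called higher in F1295A and 1 lower, where 3.09% and 3% of all tested genes were. Without D1240A replicate 2 these were 7 and 0, where 173 and 212 of all genes were called. TXNDC5, a disulfide isomerase of the secretory pathway, measured 475, 466 and 461 FPKM in WT and 399, 401 and 397 FPKM in F1295A (log2 change -0.23, SE 0.027, adjusted p = 0.00136). PIM2, a survival kinase of myeloma cells, measured 314, 313 and 314 FPKM in WT and 277, 275 and 279 FPKM in F1295A (log2 change -0.18, SE 0.021, adjusted p = 0.0013), an example of a small change with tight replicates. DERL3 (-0.26), of ER-associated degradation, fell and like these 2 genes held with each library left out. IRF4 (-0.28), PRDM1 (-0.16), XBP1 (-0.13), TNFRSF17 (-0.20), CREB3L2 (-0.35) and HERPUD1 (-0.16) fell but lost the call in at least 1 such fit (highest adjusted p: IRF4 0.0712 without F1295A replicate 2, PRDM1 0.161 without WT replicate 3, XBP1 0.0827 without WT replicate 1, TNFRSF17 0.122 without WT replicate 2, CREB3L2 0.0611 without WT replicate 1, HERPUD1 0.0639 without WT replicate 1). JCHAIN, the antibody joining chain, measured 3673, 3902 and 3788 FPKM in WT and 3884, 4128 and 3726 FPKM in F1295A and was not called (log2 change 0.05, adjusted p = 0.755). Among 39 ER chaperones and unfolded protein response genes 4 fell and 0 rose (HERPUD1, DERL3, XBP1 and the sensor ERN1 at -0.30, adjusted p = 0.0233, or 0.0994 without WT replicate 3), with a median of -0.03.

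Genes linked to t(4;14) myeloma or to NSD2 had 5 of 22 tested members lower and 0 higher, against 1.81% and 0.896% of all tested genes, with a median of -0.15. MET, the hepatocyte growth factor receptor, measured 1.55, 1.33 and 1.60 FPKM in WT and 0.399, 0.662 and 0.329 FPKM in F1295A (log2 change -1.06, SE 0.15, adjusted p = 0.00343). CA2, a carbonic anhydrase, measured 9.37, 8.59 and 8.30 FPKM in WT and 5.77, 5.35 and 5.30 FPKM in F1295A (log2 change -0.63, SE 0.083, adjusted p = 0.00261). RRAS2, a small GTPase, measured 4.69, 4.87 and 4.50 FPKM in WT and 3.25, 2.52 and 2.42 FPKM in F1295A (log2 change -0.69, SE 0.13, adjusted p = 0.0145), and that call was lost without F1295A replicate 2 (adjusted p = 0.071). All 3 were low in TKO, with means of 0.0288, 0.681 and 0.134 FPKM, and F1295A lay above TKO and below WT. Against D1240A, 5 of the 22 members were called higher in F1295A and 1 lower, where 3.09% and 3% of all tested genes were. Without D1240A replicate 2 these were 4 and 1, where 173 and 212 of all genes were called. FGFR3, the receptor gene of the same translocation, fell from 505 ± 3.13 to 439.9 ± 17.6 FPKM (log2 change -0.20, SE 0.033, adjusted p = 0.0098, or adjusted p = 0.0508 without F1295A replicate 2). MYC fell from 238 ± 9.26 to 205 ± 3.13 FPKM (log2 change -0.22, SE 0.035, adjusted p = 0.00848). In the 4p16.3 region around NSD2, FGFR3 and NSD2 were the 2 of 31 tested genes that fell, and 0 rose (6.45%, against 2.71% of all tested genes called). Vector and chromosomal reads of NSD2 were not told apart, so its lower value does not describe the region.

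Genes of MAPK feedback and the immediate early response had 5 of 29 tested members lower and 0 higher, where 1.81% of all tested genes were lower, with a median of -0.14. DUSP5, a phosphatase that inactivates ERK, measured 7.26, 7.02 and 7.04 FPKM in WT and 4.35, 4.49 and 4.15 FPKM in F1295A (log2 change -0.66, SE 0.050, adjusted p = 7.14e-05). JUN measured 3.26, 2.80 and 3.06 FPKM in WT and 1.65, 1.28 and 2.02 FPKM in F1295A (log2 change -0.73, SE 0.12, adjusted p = 0.00716). Both groups were apart without overlap, and both calls held with each library left out. MYC, BTG2 (-0.15) and ATF3 were the other 3. In the IL-6 and JAK-STAT list, SOCS1 rose while SOCS2 (-0.48), PIM1 (-0.32), PIM2 and STAT5B (-0.26) fell, of 42 tested. Among all tested genes 0.896% were called higher and 1.81% lower. BTG2, SOCS2, PIM1 and STAT5B lost the call in some fit with a library left out (highest adjusted p: BTG2 0.0761 without WT replicate 3, SOCS2 0.0668 without WT replicate 3, PIM1 0.103 without WT replicate 1, STAT5B 0.154 without WT replicate 2).

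Cell adhesion genes, which the study's title names, moved in both directions and mostly by little. The counts that follow stand beside 0.896% of all tested genes called higher and 1.81% called lower. Of 16 tested cadherins and protocadherins 2 rose and 0 fell. CDH17, a cadherin of intestinal epithelium, measured 79.2, 82.0 and 80.1 FPKM in WT and 94.4, 95.9 and 90.9 FPKM in F1295A (log2 change 0.22, SE 0.035, adjusted p = 0.00742). PCDH10, a protocadherin, measured 9.11, 8.89 and 8.88 FPKM in WT and 11.7, 11.7 and 12.2 FPKM in F1295A (log2 change 0.39, SE 0.052, adjusted p = 0.00297). In both genes every F1295A library was above every WT library, and both calls held with each library left out. Against TKO, CDH17 was higher in both, with means of 93.7 FPKM in F1295A, 80.4 in WT and 6.67 in TKO. Of 13 integrin subunits 2 fell, ITGB7 (-0.17) and ITGB1 (-0.20), and 0 rose, and both calls were lost without WT replicate 1 (adjusted p = 0.0621 and 0.0835). Of 38 immunoglobulin-like adhesion molecules and selectins 2 rose and 3 fell. CD48, a lymphocyte ligand, rose from 27.5 ± 0.372 to 36.7 ± 0.912 FPKM (log2 change 0.41, SE 0.037, adjusted p = 0.00026), and L1CAM by 0.45 (adjusted p = 0.0438, or 0.136 without F1295A replicate 3). EPCAM (-0.71), CNTN1 (-0.38) and SELPLG (-0.16), the P-selectin ligand, fell, with CNTN1 not called without WT replicate 3 (adjusted p = 0.154).

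Of 57 tested focal adhesion genes and actin linkers 6 fell and 2 rose, beside 1.81% and 0.896% of all tested genes. ENAH, which extends actin filaments, measured 2.99, 2.92 and 3.02 FPKM in WT and 1.18, 1.09 and 1.34 FPKM in F1295A (log2 change -1.03, SE 0.13, adjusted p = 0.00213). ZYX, or zyxin, fell from 29.2 ± 0.972 to 21.6 ± 1.68 FPKM (log2 change -0.43, SE 0.061, adjusted p = 0.00381) and the profilin PFN2 from 16.5 ± 1.05 to 12.1 ± 0.166 FPKM (log2 change -0.44, SE 0.051, adjusted p = 0.00132). TES (-0.24), EVL (-0.29) and CRKL (-0.15) fell and LPXN (0.38) and RAC1 (0.19) rose, all 5 losing the call in at least 1 fit with a library left out (highest adjusted p: TES 0.0824 without WT replicate 2, EVL 0.0662 without F1295A replicate 2, CRKL 0.084 without F1295A replicate 2, LPXN 0.0837 without F1295A replicate 2, RAC1 0.152 without WT replicate 1). Among 30 matrix genes COL6A1 rose and MATN2 (-0.14), P4HA1 and P4HA2 fell, and among 38 guidance genes 1, the ephrin EFNA1 (0.63, adjusted p = 0.0439, or 0.159 without WT replicate 1), rose. MATN2 was not called without WT replicate 3 (adjusted p = 0.154).

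**Figure D4:**
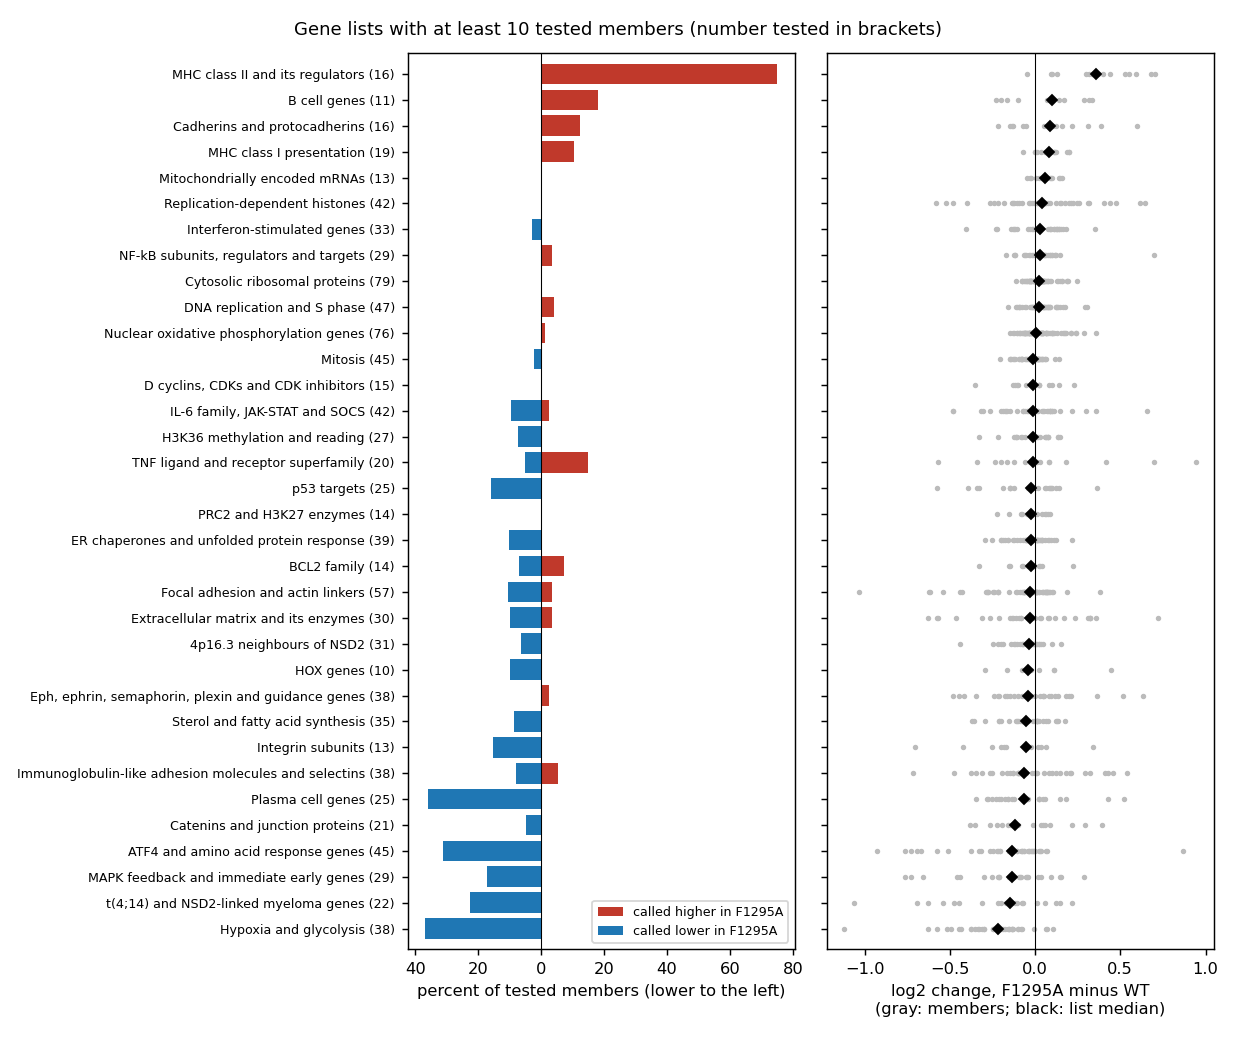
Left, share of tested members called higher (red, to the right) or lower (blue, to the left) in F1295A than in WT, in percent, for gene lists with at least 10 tested members. Right, log2 change of each member (gray) and the list median (black). Class II stands at 75% higher, and hypoxia and glycolysis at 36.8% lower, plasma cell genes at 36% and ATF4 genes at 31.1%. The lists were chosen with earlier results of these data known.

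TNF family receptors and other regulators added single genes. The list counts given here stand beside 0.896% of all tested genes called higher and 1.81% called lower. Of 20 tested TNF ligands and receptors 3 rose and 1 fell, with TNFRSF18, TNFRSF11A (the RANK receptor, 0.41) and LTB higher and TNFRSF17 lower. The pro-apoptotic BCL2L11 rose by 0.22 (adjusted p = 0.0309, or 0.128 without WT replicate 3) and PMAIP1, also pro-apoptotic, fell (-0.33, adjusted p = 0.0129, or 0.0656 without WT replicate 1). Of 35 sterol and fatty acid synthesis genes 3 fell, INSIG1 (-0.21), SCD (-0.20) and MSMO1 (-0.21, adjusted p = 0.0239, or 0.107 without WT replicate 1), and 0 rose. Of 25 p53 targets 4 fell and 0 rose, namely SESN2, PMAIP1, BTG2 and GADD45A (-0.39, adjusted p = 0.0276, or 0.104 without WT replicate 3). The junction plaque gene PKP4 (-0.35) was the 1 of 21 catenin and junction genes that fell, and LTB the 1 of 29 NF-kB genes that rose, and both calls were lost in some fit with a library left out (highest adjusted p of PKP4: 0.158 without F1295A replicate 2). The shares of these 2 lists (4.76% and 3.45%) lie near the 2.71% of all tested genes called in either direction. Of 5 APOBEC3 deaminases and 7 chemokine genes 0 were called.

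In several gene classes the share called in the main fit was at or near that of all tested genes (2.71%), so those counts show nothing particular to them. Of 79 cytosolic ribosomal protein genes, 42 replication-dependent histones, 13 mitochondrial mRNAs, 15 cyclin D and CDK genes and 14 genes of PRC2 and H3K27 enzymes, 0 were called in either direction. Medians lay between -0.03 for the PRC2 list and 0.06 for mitochondrial mRNAs. Without D1240A replicate 2, which shares the estimate of spread, 5 of 40 tested histones were called higher, where 191 of 14282 tested genes were. With only WT and F1295A in the fit, 2 histones were called higher, where 114 of 13557 tested genes were. The histone count therefore depends on the libraries fitted. EZH2, the catalytic subunit of PRC2, measured 68.3, 66.8 and 68.2 FPKM in WT and 66.3, 69.4 and 69.6 FPKM in F1295A (log2 change 0.01, adjusted p = 0.879). Of 76 nuclear oxidative phosphorylation genes 1 rose (ATP5F1E, 0.29) and of 45 mitosis genes 1 fell (CCNA2, -0.14), and neither call held with every library left out (highest adjusted p: ATP5F1E 0.154 without WT replicate 3, CCNA2 0.0842 without WT replicate 1).

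Writers, erasers and readers of H3K36 methylation were mostly not called, beside 0.896% of all tested genes called higher and 1.81% called lower. Of 27 tested, 2 fell and 0 rose, with a median of -0.01, the 2 being NSD2 and the demethylase KDM4B (9.02 ± 0.454 against 7.09 ± 0.434 FPKM in WT and F1295A, log2 change -0.33, SE 0.062, adjusted p = 0.0179, or adjusted p = 0.0846 without WT replicate 1). The sister enzymes NSD1 and NSD3 had log2 changes of 0.03 (adjusted p = 0.895) and -0.11 (adjusted p = 0.195). SETD2, which adds the last methyl group at this lysine, had 0.06 (adjusted p = 0.725), and the reader DNMT3A -0.08 (adjusted p = 0.624).

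Neighbouring genes did not move as blocks by more than 0.2 between F1295A and WT. Over 273 windows of 50 neighbouring tested genes, the median change of F1295A from WT ran from -0.07 to 0.07, and 0 windows passed 0.2 in either direction. The same windows ran from -0.89 to 0.54 in WT against TKO, with 34 past 0.2, and from -0.88 to 0.54 in F1295A against TKO, with 33 past 0.2. In F1295A against D1240A they ran from -0.14 to 0.09, with 0 past 0.2. The comparisons with TKO called 6574 genes in F1295A (45.7%) and 7157 in WT (49.7%), and both share the TKO libraries.

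**Figure D5:**
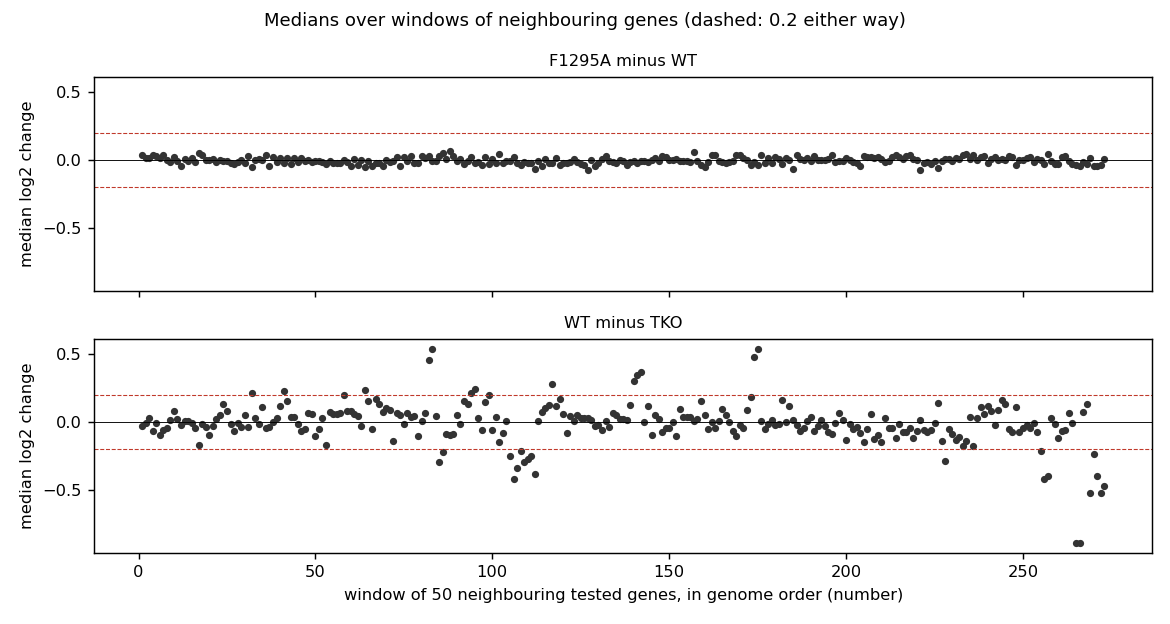
Median log2 change in each of 273 windows of 50 neighbouring tested genes (vertical axis), in genome order (horizontal axis, window number), for F1295A minus WT (top) and WT minus TKO (bottom), with dashed lines at 0.2 either way. All windows stay inside the dashed lines at the top, and 34 lie outside them at the bottom.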

How the data were processed

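Polyadenylated RNA of 12 libraries was measured. Per the submitters' processing notes, Trimmomatic 0.36, FastQC 0.11.4, STAR 2.7.9a, RSEM 1.3.1 and DESeq2 were used with build GRCh38. The authors deposited 1 FPKM value per gene and library, which scales fragments by gene length and library total, so depth and counting error are unknown. Neither the annotation release nor strand handling is stated there. Of 60504 features, 56996 matched GENCODE 29, and the 3508 others had placeholder names.

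From these values, libraries were brought to a common level with a mean log2 ratio trimmed by 30% on each side, over genes averaging 1 FPKM or more, which fixes each center. Structural RNA features (7089) were left out, and genes at 0.5 FPKM or more in at least 3 libraries were tested. limma 3.58.1 (R 4.3.3) was fitted on log2(FPKM + 0.5), a scale that understates changes of low genes, with 4 groups sharing 1 trended spread and Benjamini-Hochberg adjustment over 14391 genes. FPKM are not counts, so no count model was used.

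Named genes are NSD2, the 12 largest called changes each way with a mean of at least 2 FPKM, the 4 smallest adjusted p in each of 40 lists, the H3K36 list, and called list members. Other members are named as not called examples. The lists and genes were chosen with earlier results of these data known. On simulated data (14018 genes) 56% of genes changed 1.25-fold, 92% of 1.5-fold, 96% of 2-fold and 100% of 3-fold were recovered, with 11 false calls. The changes were set only in genes averaging 2 FPKM or more, with independent noise of 1 spread per gene in all 12 libraries. Recovery of lower genes, correlated genes and a deviating library such as D1240A replicate 2 were not covered. Same-numbered WT and F1295A libraries had deviations correlated at -0.02, -0.01 and 0.03, so numbers were not used as pairs. Alternatives covered scaling, filters, pseudocounts, structural RNAs, library weights, groups fitted, replicate block, window medians, a 2-fold minimum, no variance trend, and leaving out each library. Python 3.11.15, pandas 2.3.3, matplotlib 3.10.9 and biopython 1.88 were used. The NSD2 protein sequence was not used here, and some called list members are not reported here.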

Additional observations from a re-analysis of the deposited data

How the results depend on the processing

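Depth is unknown, so precision rests on 3 libraries per group, and most called changes are small. None of the 85 named called genes that were followed reversed under any alternative run. Genes named only because they were called list members, such as IRF4, HLA-DRA and LDHA, were not among the 85. For F1295A against WT (129 higher, 261 lower), the counts were 17 and 72 on the values as deposited, 215 and 397 with library weights, 100 and 172 with the replicate block, 4 and 7 at 2-fold or more, 70 and 218 with only the compared groups and no variance trend, and 58 to 191 and 87 to 325 with 1 library left out. Numbers in the labels did not pair the libraries, and with the replicate block 261 of the 390 calls were kept. With the compared groups only, the values as deposited gave 98 and 306.

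For F1295A against D1240A (445 higher, 432 lower) the counts were 32 and 31 on the values as deposited, 2 and 1 on those with only the compared groups, 186 and 247 with no filter, 31 and 71 with only the compared groups, 240 and 285 with the replicate block, 2 and 5 at 2-fold or more, 9 and 29 with no variance trend as well, and 137 to 690 and 173 to 533 with 1 library left out (173 and 212 without D1240A replicate 2). For F1295A against TKO (3435 and 3139) they were 2138 higher on the values as deposited, 476 and 270 at 2-fold or more, and 3057 to 3546 and 2636 to 3299 with 1 library left out. For WT against TKO (3719 and 3438) they were 618 and 327 at 2-fold or more, and 3327 to 3832 and 2959 to 3578 with 1 library left out. Of the same 85 genes, 85 kept the call for F1295A against WT with median-ratio scaling and 30 on the values as deposited. On those values with only the compared groups (chosen after seeing the data) it was kept by 74. The call was kept by 71 with the replicate block, 44 with only the compared groups and no variance trend, and 5 at 2-fold or more. With 1 library left out it was kept by 50 to 84, and the cause of other changes was not tested.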

Other observations

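Some genes outside the lists were called in every fit that left out a library, and those named here were chosen after their values were seen. LCP1, an actin bundler of leukocytes, rose from 66.1 FPKM in WT to 88.0 in F1295A (log2 change 0.41, adjusted p = 0.000116, limma, n = 3 libraries per group). LSP1, an actin-binding protein of lymphocytes, rose from 53.3 to 64.1 FPKM (0.26, adjusted p = 0.00716). ID2, an inhibitor of helix-loop-helix factors, rose from 27.7 to 37.5 FPKM (0.43, adjusted p = 0.00152). In D1240A, the means were 116, 83.5 and 49.1 FPKM for LCP1, LSP1 and ID2.

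ADCY1, an adenylate cyclase, went from 5.91 to 3.52 FPKM (-0.68, adjusted p = 0.00365), the phosphodiesterase PDE4D from 9.24 to 6.22 FPKM (-0.54, adjusted p = 0.00702), and the kinase subunit PRKAR2B from 2.35 to 1.16 FPKM (-0.78, adjusted p = 0.00373). EPB41L3, a membrane skeleton protein, fell from 3.84 to 1.14 FPKM (-1.45, adjusted p = 0.00743). The first 3 act in cyclic AMP signaling, for which no list was counted.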
